A study of Triticum aestivum with 4 samples.

Results

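A set of 125 probe sets of the wheat array fell at least 4-fold in the flag leaf within 1 h at 40 °C, from a control signal of 500 or more. They were chosen from 61290 rows by 2 limits on the MAS5 signal, the linear brightness that the array software gives each probe set. The signal had to be at least 500 on both control arrays, and the higher heat value had to be at most 0.25 of the lower control value. Control rows (AFFX or RPTR prefix) and the TaAffx.128414 cluster, of which no probe set met both limits, were left out. Of the 13088 probe sets that met the control limit, 0.955% met the fall limit. These values chose the set, so the sizes of the falls are given as a description, with no test.

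The arrays were made from flag leaves of wheat (Triticum aestivum) cultivar TAM 107 at about 10 days after pollination. The 2 heat arrays came from plants moved to a growth chamber raised to 40 °C and sampled after 1 h, and the 2 control arrays from plants under normal growth conditions. All plants had been moved from the field to pots before flowering. Whether the control plants went into a chamber as well is not in the labels, and the effects of transfer and of temperature cannot be told apart. Nor do the labels state that replicate arrays represent different plants, so the spread that enters p-values could be technical only.

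The flag leaf is the uppermost leaf of the wheat stem and supplies much of the sugar that fills the grain. When a plant leaf is heated, heat shock factors switch on genes for chaperones, proteins that keep other proteins folded. At the same time many messenger RNAs made at normal temperature become scarcer, by slower transcription, faster decay or both; in Arabidopsis, heat is known to trigger widespread messenger RNA decay. Bread wheat is hexaploid, with near-identical copies of most genes on its A, B and D genomes, and a probe set can report several copies together. In leaf tissue, fewer cells of a type and less RNA per cell cannot be told apart.

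The arrays of a group resembled each other closely, with r = 0.977 between the heat arrays and r = 0.979 between the control arrays over the log2 signals of the 30558 tested probe sets. Leaf markers (Rubisco, photosystem II and Calvin cycle genes; 17 probe sets tested of 34) summed to 306409 and 299545 on the heat arrays and 236403 and 254134 on the control arrays. The sums are carried by a few very bright probe sets: 11 of the 17 had a lower mean log2 signal in heat and 6 a higher one (8 called lower and 5 higher), and the median signal was 1833 and 1522 on the heat arrays and 3193 and 2264 on the control arrays. The counts of lower and higher are of probe sets and not of genes. Most of the 17 belong to the gene LOC100049018, and so do all the lower ones except that of FBP (log2 -0.39). Most probe sets of LOC100049018 are of the TaAffx.128414 cluster, which the fall rule leaves out. The brightest probe sets of LOC100049018 were higher (log2 0.72 and 0.58). Those of LOC543283 (log2 0.15), LOC543291 (0.35) and LOC543290 (0.34 and 0.40) were all higher. No leaf marker was at 0. Grain markers (2 tested of 4) summed to 430.9 and 349.7 on the heat arrays and 469.7 and 390.4 on the control arrays. No floral marker had a name on the array. The part of these markers in the falls was not tested.

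Across the array, 22.9% of the tested probe sets were called lower in heat and 14.2% higher (limma, adjusted p below 0.05). All 125 probe sets of the fall rule passed the brightness filter and were called lower; the rule used the same contrast, so nothing is read from that count. Their median log2 difference was -2.69, against -0.15 over all tested probe sets and -0.14 over the other 12963 probe sets at 500 or more in control. Rises made up 38.3% of all calls as deposited and 38.1% with scaling on the polyA spike controls. The share was 42.4% under quantile normalization, 48.2% under cyclic loess and 50.5% under median centring.

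The set ran from moderately to very bright in control leaves. Its signals on the heat arrays ran from 9.80 to 3794 with a median of 252.9 on heat replicate 1, and from 10.6 to 4009 with a median of 250.8 on heat replicate 2. On the control arrays they ran from 513.2 to 23959 with a median of 1725 (replicate 1), and from 515.6 to 23708 with a median of 1876 (replicate 2). The medians of the 2 arrays of each group were close to each other. Of all signal summed per array, the 125 probe sets made up 0.135% and 0.134% on the heat arrays, against 0.967% and 0.961% on the control arrays. By mean signal, their median rank among the 61115 probe sets was the 70.6th percentile in heat and the 90.7th in control.

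**Figure D1:**
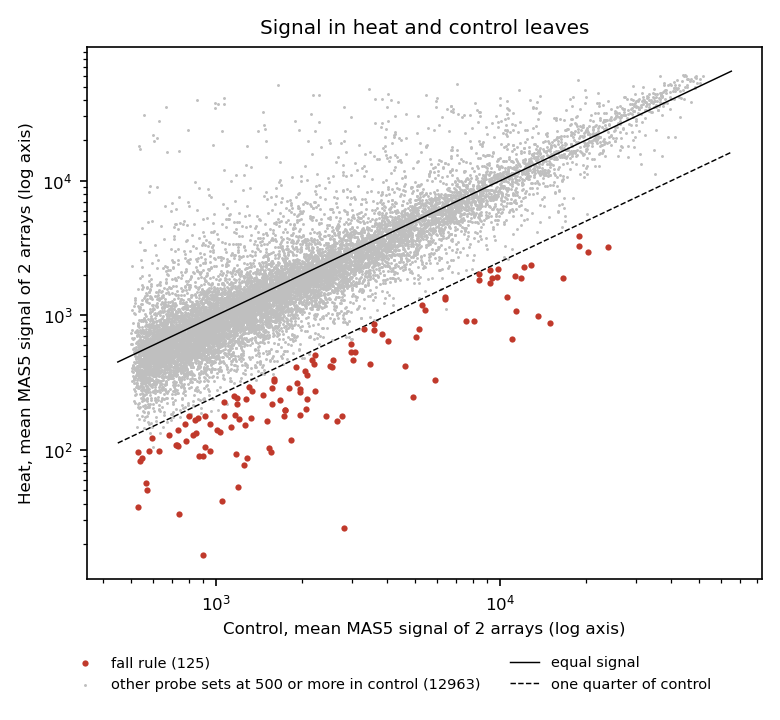
Each point is a probe set with at least 500 on both control arrays, with its mean MAS5 signal on the 2 heat arrays (vertical, log axis) against the 2 control arrays (horizontal, log axis). Red points are the 125 of the fall rule, which lie below the dashed line of 0.25 over the whole range of control signals, and grey points are the other 12963.

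Most falls were between 4-fold and 8-fold. By group means of log2 signal, 84 probe sets fell 4-fold to 8-fold, 28 fell 8-fold to 16-fold and 13 fell more than 16-fold. The median fall was 6.47-fold and the middle 50% lay between 5.13-fold and 9.18-fold. Comparing the higher heat value with the lower control value, 31 fell at least 8-fold, 7 at least 16-fold and 2 at least 32-fold. Among probe sets with a control mean of 500 to 1000, 29 of 4189 (0.692%) met the rule, and above 10000, 14 of 965 (1.45%) did. The median falls of these classes were 6.56-fold and 7.15-fold, and that of the 16 probe sets between 5000 and 10000 was 4.93-fold.

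Loss of signal was rarely complete. Both heat values of 38 probe sets were still at 500 or more. At the other end, both heat values of 6 probe sets lay below 69.2, the median brightness of the array that served as the filter for testing, and 4 more had 1 heat value below it. For these 10 the size of the fall is uncertain. Replicates were close in control, with a median SD of 0.053 on the log2 scale, against 0.056 for the other probe sets at 500 or more in control. They were farther apart in heat, with a median SD of 0.12, against 0.065 for those other probe sets, which are brighter in heat. The 12211 other tested probe sets whose heat means lay in the middle 50% of the set's heat means (137.1 to 686.4) had a median SD of 0.15 in heat. In 8 probe sets the heat replicates differed 2-fold or more, and in 0 the control replicates did.

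The largest fall was that of Ta.4360.1.A1_at, a probe set with no gene name. Its signal was 35.2 and 17.2 on the heat arrays and 2803 and 2829 on the control arrays, a 115-fold fall (log2 -6.84). Both heat values are in the range of dim probe sets, so the ratio may be far from the true one. The second was TaAffx.54121.1.S1_x_at, also unnamed, with 9.80 and 23.4 in heat and 955.3 and 836.0 in control, a 59.0-fold fall (log2 -5.88; -5.26 without heat replicate 1 and -6.51 without heat replicate 2). Another probe set of the same consensus, TaAffx.54121.1.S1_at, had 84.8 and 94.4 in heat and 885.2 and 908.6 in control, a 10.0-fold fall. The pair was similarly bright in control and both were low in heat, but they gave different sizes. The third by mean, Ta.23365.1.A1_at, had heat values of 174.5 and 10.6 that disagreed widely, against 1223 and 1118 in control. Its 27.2-fold mean fall (log2 -4.76) rests on heat replicate 2, without which it stands at log2 -2.74 (and at -6.78 without heat replicate 1); heat replicate 1 is 0.156 of the lower control value.

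Falls of comparable size were measured more firmly where the heat signal stayed well above the dim range. Ta.22452.1.S1_at had 249.9 and 243.4 in heat and 4969 and 4849 in control, a 19.9-fold fall. Ta.27570.1.S1_at had 295.8 and 364.5 in heat and 5988 and 5775 in control, a 17.9-fold fall. Ta.9590.1.S1_at, the sixth brightest of the set in control, had 852.0 and 907.9 in heat and 14874 and 15009 in control, a 17.0-fold fall. In each of these the gap between the groups was many times the difference between replicates. Ta.18487.1.S1_x_at, with 163.7 and 163.2 in heat and 2574 and 2761 in control, fell 16.3-fold. Among the 12 largest falls were also those of TaAffx.50270.1.S1_at (22.5-fold, with 56.8 and 49.2 in heat and 1199 and 1182 in control) and of a pair on the stem Ta.29534. Of that pair, Ta.29534.1.S1_x_at had 57.3 and 26.8 in heat and 1016 and 1073 in control. Ta.29534.1.S1_at had 36.0 and 30.5 in heat and 738.7 and 741.8 in control. The pair fell 26.6-fold and 22.4-fold, with all 4 heat values below 69.2. The other two of the 12 were Ta.9107.2.S1_at (16.4-fold), on a stem with 3 probe sets in the set, and Ta.27790.1.S1_s_at (16.2-fold), which has an annotated gene.

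**Figure D2:**
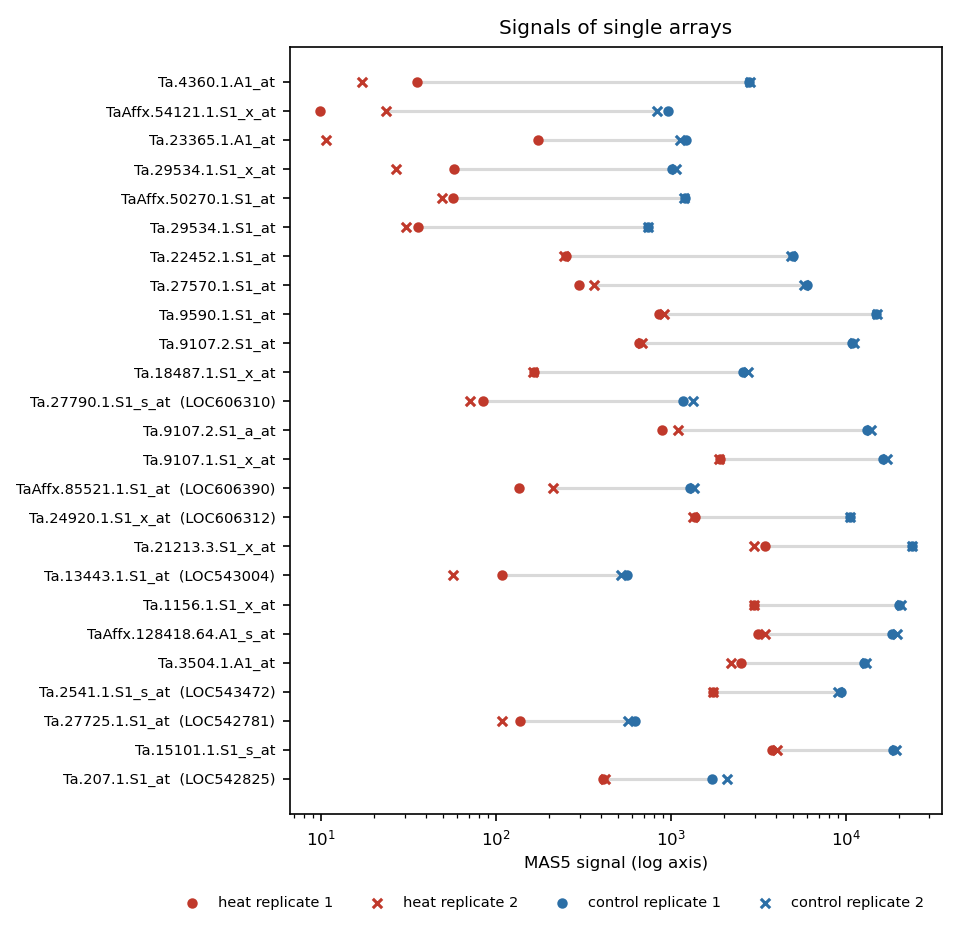
MAS5 signals (log axis) of each heat array (red) and control array (blue) for the 12 largest falls, the 8 brightest in control and the 7 with an annotated gene, ordered by the fall, largest at the top. Circles are replicate 1 and crosses replicate 2; the heat replicates of Ta.23365.1.A1_at, at 174.5 and 10.6, stand farthest apart.

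The brightest probe sets of the set were among the brightest of the array in control leaves. Most of those named here carry the suffix _s_at or _x_at, which marks possible matches to several transcripts. Plain probe sets that share a consensus with Ta.21213.3.S1_x_at and Ta.1156.1.S1_x_at were far dimmer in control, as given below. The signals therefore do not establish how abundant each RNA was. Ta.21213.3.S1_x_at had 3443 and 2969 in heat and 23959 and 23708 in control, a 7.45-fold fall. Ta.1156.1.S1_x_at had 2969 and 2980 in heat and 20127 and 20615 in control, a 6.85-fold fall. TaAffx.128418.64.A1_s_at had 3139 and 3444 in heat and 18401 and 19516 in control, a 5.76-fold fall. All 3 kept signals in heat that exceed those of most probe sets on the array. Ta.15101.1.S1_s_at fell 4.86-fold (3794 and 4009 in heat, 18668 and 19210 in control), and Ta.3504.1.A1_at fell 5.48-fold (2501 and 2193 in heat, 12706 and 12937 in control).

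The stem Ta.9107 was the only one with 3 probe sets in the set, and all 3 are bright. A stem is the identifier up to its second point, which names the sequence cluster the probe sets were designed from. Ta.9107.2.S1_at had 660.1 and 678.5 in heat and 10824 and 11173 in control, a 16.4-fold fall. Ta.9107.2.S1_a_at had 886.2 and 1099 in heat and 13238 and 13937 in control, a 13.8-fold fall. Ta.9107.1.S1_x_at had 1903 and 1879 in heat and 16214 and 17139 in control, an 8.81-fold fall. The groups lay far apart in each, and a dimmer probe set of the stem, Ta.9107.3.A1_at, was also lower, at 43.3 and 55.0 in heat and 253.0 and 219.4 in control. The files and tables used here give this cluster no gene.

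Genes were annotated for 7 of the 125, all with a LOC number and no further name or product, so none could be placed in a pathway. Of the 574 annotated probe sets at the same control brightness, 1.22% met the rule, against 0.955% of all. None of 22 lists of functional groups, written as patterns on gene names, held any of the 7. Tested probe sets were in 12 of the lists, 56 entries in all, of which 23 were called lower and 11 higher. Of 14 tested for Rubisco and the Calvin cycle, which fix carbon in the leaf, 8 were lower and 2 higher. That count is of probe sets and not of genes. Most of the tested leaf markers above, Rubisco among them, belong to the gene LOC100049018. Most are also probe sets of the TaAffx.128414 cluster, which the fall rule leaves out. In the histone and chromatin list 6 of 13 were lower and 0 higher, and in the cytoskeleton list 5 of 11 were lower and 2 higher. The other 9 lists had 1 to 3 tested probe sets each, 18 in all, with 4 lower and 7 higher; among them 3 of 3 for the photosystems and 2 of 2 for heat shock and folding were higher, and 2 of 2 for nitrogen metabolism were lower. Beside these stand the array-wide shares of 22.9% lower and 14.2% higher. No probe set of the 125 has a name that a list could match. Their absence from the lists therefore says nothing about these functional groups.

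Among the annotated genes, LOC606310 and LOC606312 are neighbours on the chromosome by RefSeq's gene order (assembly IWGSC CS RefSeq v2.1). Only 1 gene, which does not code for protein, lies between them. LOC606310 (Ta.27790.1.S1_s_at) had 83.7 and 71.1 in heat and 1173 and 1337 in control, a 16.2-fold fall. LOC606312 (Ta.24920.1.S1_x_at) had 1377 and 1340 in heat and 10566 and 10576 in control, a 7.78-fold fall. That both heat values lie below both control values follows from the rule for each of them. LOC606312 kept a signal at the 88.5th percentile of the array in heat. Of the 7 genes, 4 are on the same chromosome, where no other pair had fewer than 356 genes between, and the other 3 are each on a chromosome of their own. Both probe sets carry suffixes that mark possible matches to several transcripts, and whether one can bind RNA of the other gene was not tested. A second probe set of LOC606310 was dim on all arrays (50.1 and 5.10 in heat, 9.74 and 47.1 in control) and gives no information on it.

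LOC606390 was followed by 3 probe sets. TaAffx.85521.1.S1_at, the one in the set, had 135.8 and 211.5 in heat and 1290 and 1350 in control, a 7.79-fold fall. Ta.9366.1.S1_x_at did not meet the rule, with 311.0 and 280.8 in heat and 1080 and 988.4 in control, a 3.50-fold fall. The third, TaAffx.52581.1.S1_at, was dim, with 24.9 and 20.2 in heat and 46.9 and 65.9 in control. For the first, the rule itself puts both heat values below both control values. Ta.9366.1.S1_x_at and the dim one, which was not tested, had the same order, as had 43.6% of all tested probe sets.

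LOC543472 was the brightest annotated gene after LOC606312. Its probe set Ta.2541.1.S1_s_at had 1742 and 1734 in heat and 9408 and 8956 in control, a 5.28-fold fall. A second, Ta.2541.1.S1_x_at, had 666.2 and 790.7 in heat and 1586 and 1859 in control, a 2.37-fold fall. That the first is lower follows from the rule. The second is of the same consensus and also had both heat values below both control values, as had 43.6% of all tested probe sets. Both carry suffixes that mark possible matches to several transcripts. LOC543004 (Ta.13443.1.S1_at) had 107.4 and 57.0 in heat and 557.9 and 515.6 in control, a 6.85-fold fall, with 1 heat value below 69.2. LOC542781 (Ta.27725.1.S1_at) fell 4.87-fold, with 137.7 and 107.8 in heat and 622.7 and 565.0 in control. LOC542825 (Ta.207.1.S1_at) fell 4.59-fold, with 407.3 and 421.5 in heat and 1724 and 2095 in control.

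The 125 probe sets do not stand for 125 genes. They carry 112 consensus identifiers on 107 stems; 17 stems held more than 1 of them, 16 with 2 and 1 with 3, or 35 probe sets in all. Within a stem the log2 differences lay 0.24 apart at the median, and under 0.5 apart in 11 of the 17 stems. All of these probe sets had to meet the rule, which sets a least fall for each. The widest gap, 4.09, was on the stem Ta.4360, where the second probe set, Ta.4360.2.S1_at, had 118.4 and 115.0 in heat and 800.8 and 766.1 in control. That is a 6.71-fold fall, beside the 115-fold fall of the first.

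The 20 largest falls among these 35 probe sets ran from 6.71-fold to 115-fold. Besides those on the stems Ta.4360, TaAffx.54121, Ta.29534 and Ta.9107, they include both probe sets of 3 stems. Ta.21345.1.A1_at had 77.3 and 119.2 in heat and 976.3 and 924.5 in control, a 9.90-fold fall, and Ta.21345.1.A1_x_at had 212.9 and 85.0 in heat and 1138 and 1113 in control, an 8.36-fold fall. TaAffx.66712.2.A1_at had 484.9 and 389.4 in heat and 3532 and 3414 in control, a 7.99-fold fall, and TaAffx.66712.1.S1_at had 220.6 and 252.2 in heat and 1685 and 1676 in control, a 7.12-fold fall. On the stem TaAffx.6514 the plain probe set TaAffx.6514.1.S1_at fell 7.57-fold and TaAffx.6514.1.S1_x_at 6.85-fold. The log2 differences of each pair lay 0.24, 0.17 and 0.14 apart. Both probe sets of a pair had to meet the rule, so part of this closeness is built in. On the stems Ta.21345 and TaAffx.6514 the pair also shares a single consensus.

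From 5 more stems 1 probe set each is among the 20. Ta.16450.1.S1_a_at, the brightest of them in control, had 415.6 and 424.4 in heat and 4424 and 4773 in control, a 10.9-fold fall. Ta.3603.1.S1_at fell 9.25-fold, Ta.20938.1.A1_at 8.13-fold, Ta.28398.3.S1_a_at 7.26-fold and Ta.12662.1.A1_at 6.74-fold. Their partners on the stem fell less, by 0.76 on the log2 scale for Ta.16450, 0.95 for Ta.3603, 0.38 for Ta.20938, 0.66 for Ta.28398 and 0.067 for Ta.12662.

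Probe sets that share a stem with the set but did not meet the rule were mostly lower too. Leaving aside the large stems TaAffx.128418 and Ta.7378, 66 such probe sets on 35 stems were tested. In 57 of them (86.4%) both heat values lay below both control values, against 43.6% of all tested probe sets, and in 4 both lay above, against 25.5%. Limma called 51 lower (77.3%) and 4 higher (6.06%), against 22.9% and 14.2% of all tested probe sets. The median log2 difference of the 66 was -1.50. They report sequences related to those the rule chose on the same arrays, so this is a description and not separate support. On 32 of the 35 stems every tested one of them was below 0, and 1 of the 66 fell further than the chosen probe sets of its stem. On the large stems the picture was mixed. Of 65 tested on TaAffx.128418, 13 were called lower (20%) and 15 higher (23.1%). Of 31 on Ta.7378, 9 were lower (29.0%) and 6 higher (19.4%). The array-wide shares were 22.9% lower and 14.2% higher.

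**Figure D3:**
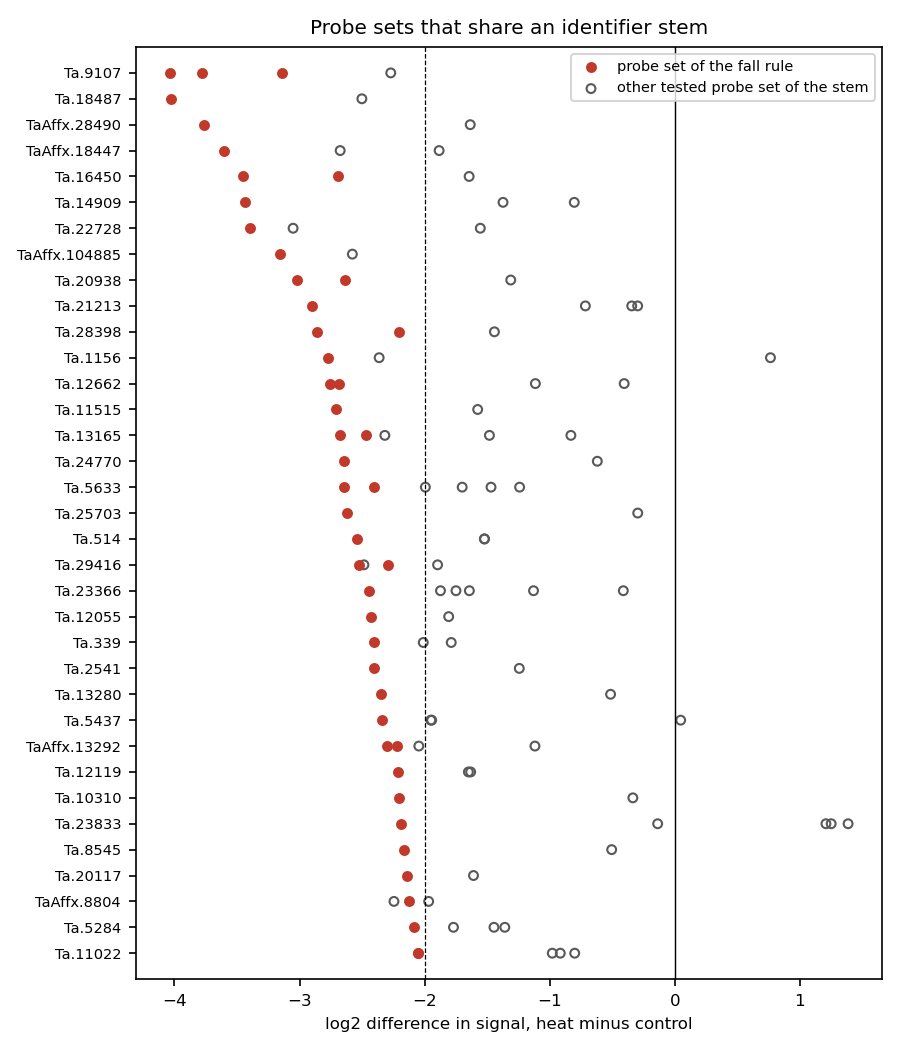
Log2 difference in signal, heat minus control (horizontal), of probe sets that share an identifier stem (1 row per stem, 35 stems). Red points met the fall rule, open circles are the other tested probe sets of the stem, the solid line marks 0 and the dashed line -2; open circles right of 0 are on the stems Ta.1156, Ta.5437 and Ta.23833.

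Some probe sets of the stems Ta.23833 and Ta.1156 were called higher in heat. On the stem Ta.23833, the chosen probe set Ta.23833.1.S1_at had 1818 and 1865 in heat and 8317 and 8486 in control, a 4.56-fold fall. Ta.23833.2.S1_at of the same stem had 25211 and 27057 in heat and 10692 and 11260 in control (log2 1.25), and Ta.23833.2.S1_x_at gave nearly the same (log2 1.21). Ta.23833.3.S1_x_at had 5148 and 5266 in heat and 1968 and 2016 in control (log2 1.39). These 3 were higher on both heat arrays by more than 2-fold while the chosen one was lower, and Ta.23833.4.S1_at stood at log2 -0.14 with overlapping groups.

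On the stem Ta.1156 the contrast was within a single consensus. Ta.1156.1.S1_x_at, the second brightest of the set, fell 6.85-fold. Ta.1156.1.S1_at, whose identifier differs only in its suffix, had 1137 and 1474 in heat and 855.1 and 677.7 in control (log2 0.77). The first is far brighter in control, and its suffix marks possible matches to other transcripts. On the stem Ta.21213 the chosen probe set, brightest of the 125 in control, fell 7.45-fold. Of the others, Ta.21213.2.S1_x_at had 22623 and 23252 in heat and 28521 and 29692 in control (log2 -0.34), and Ta.21213.1.S1_a_at was at log2 -0.30. Both are brighter in control than the chosen probe set and fell much less. Ta.21213.3.S1_at, of the same consensus as the chosen one, was dim (6.44 and 16.3 in heat, 46.9 and 31.0 in control) and was not tested.

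The types of probe set were counted in the 125 and in the other 12963 at 500 or more in control, with no test of the difference. The plain suffix _at was carried by 64% of them, against 59.0% of the others. The suffixes _s_at and _x_at, which mark possible matches to several transcripts, were carried by 9.60% and 19.2%, against 7.92% and 18.7%. The suffix _a_at was carried by 7.20% against 14.4%, and identifiers of the TaAffx series made up 25.6% against 17.9%. The tag A1 in place of S1 was carried by 23.2% against 17.9%. The median log2 difference was -2.75 in the 80 probe sets with the plain suffix and -2.64 in the 45 with another.

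At the limits of the rule the values form no gap. Just inside the limit of 0.25 lay Ta.20972.1.S1_at, with 174.1 and 108.1 in heat and 773.8 and 696.3 in control, followed by Ta.11022.2.S1_at and Ta.6362.1.S1_s_at, with ratios of 0.25, 0.25 and 0.248. Just outside lay TaAffx.84369.1.S1_at, Ta.12207.1.A1_at and Ta.16907.1.S1_at, with ratios of 0.252 to 0.253. At the control limit, the lowest control values inside were 513.2 (Ta.30837.1.S1_at), 515.6 (Ta.13443.1.S1_at) and 518.9 (TaAffx.18447.5.S1_s_at). Those just outside were 498.1 (Ta.12666.1.S1_at), 475.2 (Ta.20202.1.A1_x_at) and 464.3 (Ta.1825.1.A1_at). With the sign turned, 190 probe sets of the same control brightness had both heat values at least 4-fold above the higher control value.

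Other scalings of the arrays found a similar number of probe sets. The rule gave 113 under quantile normalization, 101 under median centring, 100 under cyclic loess and 112 with scaling on the polyA spike controls. Of the 125, 91 met the rule under all 4. Leaving out 1 array gave between 135 and 161, all 125 among them, as a rule on fewer arrays must. A limit of 0.5 in place of 0.25 gave 756.

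**Figure D4:**
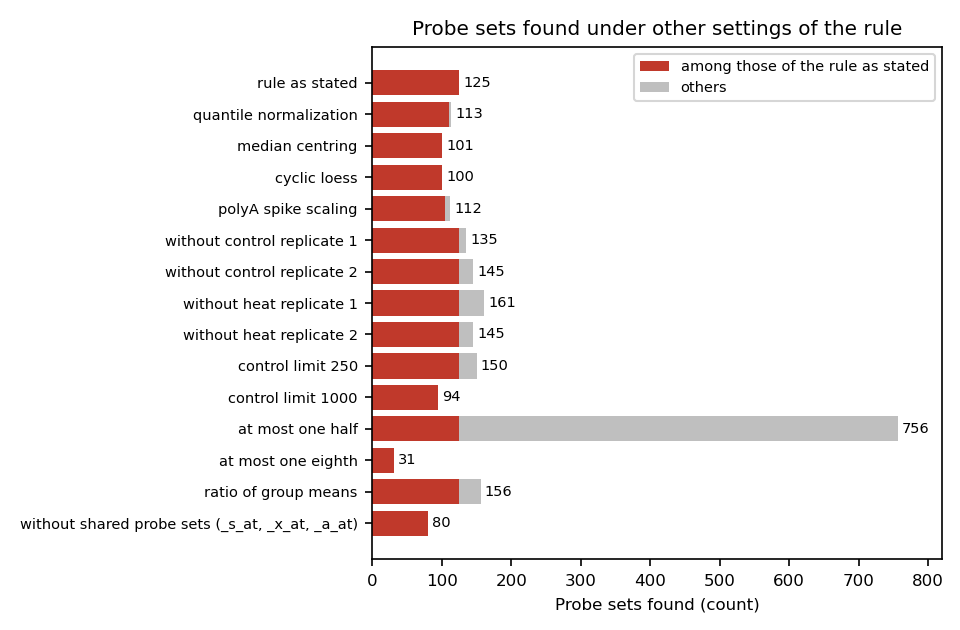
Number of probe sets found (horizontal) by the rule as stated and with 1 setting changed at a time. The red part of each bar counts those among the 125 and the grey part others; the counts range from 31 at a limit of one eighth to 756 at a limit of 0.5.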

How the data were processed

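Total RNA of 2 heat and 2 control flag leaf samples was labelled with biotin and hybridised to single-colour Affymetrix wheat arrays, per the labels. The authors deposited, for every probe set and array, an intensity on a linear scale. Affymetrix Expression Console 1.1 and the MAS5 algorithm appear in the submitters' processing notes, without settings. The trimmed mean (2% dropped at each end) is 500.0 on every array, as after scaling to a common target. Detection calls were not used, and precision is limited by having 2 arrays per group.

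The intensities were taken to log2 and not normalized again. Of 61115 probe sets, the 30558 whose mean log2 signal was at least the median (6.11, or 69.2 on the linear scale) entered limma 3.58.1 (R 4.3.3; lmFit and eBayes with trend). The contrast was heat minus control, tested on both sides, and Benjamini-Hochberg adjusted p-values below 0.05 were called. The fit had 2 residual degrees of freedom and 5.45 prior ones. It was also run on simulated arrays with 200 changed probe sets. Their variances were drawn from the fit's own prior, so that run cannot check the fit on these data. For gene names, the platform annotation lists 1 symbol for 1273 probe sets, several for 0 and none for 59842, and symbols were updated from RefSeq. The 7 annotated genes were all found there.

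The probe sets and lists were chosen with earlier results of these data known. The text names those with 1 annotated gene, the 12 largest falls, the 8 brightest in control, 3 on each side of each limit and the 20 largest falls among those sharing a stem. Probe sets outside the rule on the same stems, and Ta.23833.1.S1_at with them, were named after their values were seen. Same-numbered arrays did not deviate together (r = 0.012 between deviations from the group means over the tested probe sets), so replicate numbers were not taken as pairs. Alternatives covered scaling, an offset, filters, the intensity trend, a replicate block, the limits of the rule and leaving out each array.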

Additional observations from a re-analysis of the deposited data

How the results depend on the processing

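The number of probe sets found changed with the size of fall asked for, to 756 at a limit of 0.5 and 31 at one eighth, and was 80 without the suffixes _s_at, _x_at and _a_at. Leaving out 1 array gave 135 to 161. The median log2 difference of the 125 was -2.58 with median centring, -2.55 with cyclic loess and -2.41 with an offset of 64, which shrinks ratios of dim values by construction; without 1 array it ranged from -2.73 to -2.61. Calls lower in heat across the array numbered 6992, and between 4142 and 6827 without 1 array (4142 without control replicate 1 and 4191 without control replicate 2; these fits have fewer arrays). Calls higher in heat numbered 4337, and 3498 to 3842 without 1 array. With the replicate block, 125 of the 125 were called lower, with 7146 lower and 4458 higher calls across the array. Same-numbered arrays share only a number. Without the intensity trend 124 of the 125 were called lower, with 4681 lower calls across the array. The rule used the same contrast, so nothing is read from these counts. Among the named probe sets that were tested, the exception was Ta.23365.1.A1_at. Its call was lost without the intensity trend and without either control array (log2 -4.76, -4.70 and -4.83). TaAffx.54121.1.S1_x_at was not tested in the fits without control replicate 1 or without control replicate 2, so they give no call for it. No named value changed sign among 613 from these alternatives. The named probe sets were chosen for falls at, near or beyond the limit of the rule, so nothing is read from that either.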

Other observations

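The heat lasted 60 min, so each fall can also be written as a pace. Taken as an even decline over the hour, the median fall of the 125 probe sets equals 1 halving of the signal every 22.3 min. The middle 50% lay between 18.8 and 25.4 min per halving and the slowest was at 29.3 min. A fall of at least 4-fold was asked for, so the slow end of this range is set by the rule. Ta.22452.1.S1_at, Ta.27570.1.S1_at and Ta.9590.1.S1_at, whose heat signals stayed above the dim range, came to 13.9, 14.4 and 14.7 min per halving, and the bright probe sets of the stem Ta.9107 to 14.9, 15.9 and 19.1 min. The shortest value, 8.77 min for Ta.4360.1.A1_at, rests on heat signals of 35.2 and 17.2 and is uncertain. These figures restate the ratio of heat to control leaves. No array was made between the start and the end of the treatment, the signals are relative to the scaling of each array, and transcription and decay were not measured apart.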
